A study of Mus musculus with 6 samples.

Results

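The transcripts described here are those of 5 basic helix-loop-helix leucine zipper factors that read the E-box, a short palindrome in promoters: Tfe3, Tfeb and Mitf of the MiT/TFE family and Usf1 and Usf2 of the USF family. They were taken from a table of raw read counts by gene symbol, and 5 of its 27179 genes matched. The libraries were made from mESCs, embryonic stem cells of the mouse, kept in medium with serum and the cytokine LIF. The cells carried Tfe3-ERT2, a Tfe3 protein that enters the nucleus when 4-hydroxytamoxifen (4OHT) is added. The 4OHT group held 3 libraries of cells that were given 4OHT at 1 µg/mL over 48 h, and the EtOH group held 3 libraries given the ethanol vehicle. Every library carried the fusion, so effects of 4OHT itself and of Tfe3 entering the nucleus cannot be told apart. The promoter that drives the fusion, and whether the line is a single clone, are not stated in the labels.

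MiT/TFE factors pair with each other, bind E-boxes and related sites, and are known for switching on genes of lysosomes and autophagy. When nutrients are plentiful, mTORC1 phosphorylates them at the lysosome with the help of Rag GTPases and folliculin, and 14-3-3 proteins then hold them in the cytoplasm. In mESCs, nuclear Tfe3 is known to favour the naive state, in part through Esrrb. USF factors bind the same E-box core as dimers of Usf1 and Usf2, are made in most cell types, and are known for genes of lipid synthesis.

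The promoters of Tfe3 and Usf1 are shown first because both transcripts fell in 4OHT and because neither sequence holds the E-box that the factors themselves bind. Tfe3 counts take in reads of the fusion, whose promoter is not stated, so the fall of Tfe3 cannot be placed at the promoter shown. Sequences are from RefSeq on GRCm38.p6, the 250 bases before an annotated start, written 5′ to 3′ along the gene. A motif would stand in capitals, and there is none.
Tfe3, chrX:7762411-7762660 (+ strand): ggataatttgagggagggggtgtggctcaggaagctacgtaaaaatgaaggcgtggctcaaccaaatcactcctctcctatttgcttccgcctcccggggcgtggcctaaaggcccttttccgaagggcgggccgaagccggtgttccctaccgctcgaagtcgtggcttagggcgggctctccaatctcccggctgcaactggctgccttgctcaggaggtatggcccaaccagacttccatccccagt
Usf1, chr1:171411063-171411312 (+ strand): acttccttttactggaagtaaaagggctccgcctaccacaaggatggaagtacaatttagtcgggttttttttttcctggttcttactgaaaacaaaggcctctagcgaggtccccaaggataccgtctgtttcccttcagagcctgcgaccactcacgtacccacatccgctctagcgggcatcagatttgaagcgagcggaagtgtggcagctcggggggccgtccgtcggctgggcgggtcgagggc
The letters searched were CACGTG (the E-box), TCACGTGA (an extended E-box that contains it), the palindrome of the CLEAR element (the extended form with G before it and C after it) and CATGTG (the core of the M-box that MITF binds in pigment genes). Both strands were searched in windows of 250 bases before to 50 after each start. Tfe3 had 2 such windows, Tfeb 3, Mitf 3 and Usf1 2, and Usf2 is named only. None of these 10 windows held any of the letters, where 7.92% of all 22271 windows held the E-box and 11.6% the M-box core. Beside shares that low, 10 windows without a match are no result about the members.

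Of the 5 members, Tfe3 and Usf1 fell in 4OHT, Usf2 rose, and Tfeb and Mitf did not pass the test. The changes were small: Tfe3 was 1.25-fold lower, Usf1 1.27-fold lower and Usf2 1.45-fold higher. All 5 members passed the filter on low counts. Calls rest on edgeR's quasi-likelihood test with a Benjamini-Hochberg adjusted p under 0.05 over 12345 tested genes, of which 42% were called, 21.4% higher and 20.6% lower. With 5 members, 3 calls are read gene by gene against that background. The values of the 4OHT and EtOH libraries did not overlap for those same 3 members, as they did not for 48.8% of tested genes. At a minimum of 1.5-fold, 0 members were called, against 969 higher and 532 lower genes in the whole table.

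**Figure D1:**
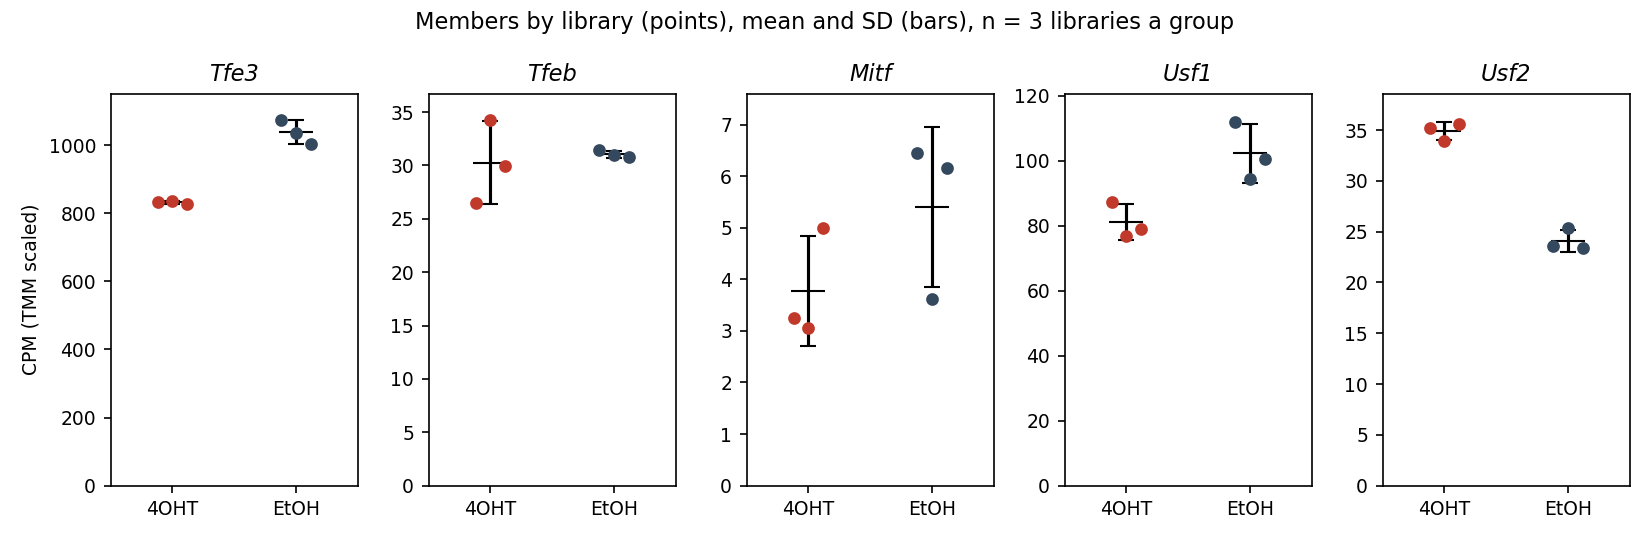
Level of each member (CPM scaled with TMM factors, y axis from 0) in each library (points) of the 4OHT and EtOH groups, with the mean and SD as bars (n = 3 libraries each). Tfe3 and Usf1 lie lower and Usf2 higher in all 3 4OHT libraries than in any EtOH library, while the points of Tfeb and Mitf overlap.

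Tfe3 is the factor that the fusion is built on, and its counts take in reads of the endogenous transcript and of the fusion as far as they share sequence. Its gene (Entrez Gene 209446) lies on chromosome X, 7762530 to 7775202 in GRCm38, on the plus strand, and shares no exon base with another model of GENCODE vM21. Its raw counts were 3833, 4635 and 5296 in 4OHT libraries and 5332, 4578 and 4080 in EtOH libraries, so it was by far the best measured member. After scaling it stood at 832 ± 4.34 CPM in 4OHT and 1037.5 ± 35.1 CPM in EtOH (SD, n = 3 each). The log2 fold change was −0.32, with a 95% interval from −0.38 to −0.26 (edgeR adjusted p = 9.82e-19). The 4OHT libraries lay closer together than the EtOH libraries. It ranked 438th of the tested genes by p. A 4OHT effect on the Tfe3 protein's place in the cell is not visible in such counts, which measure RNA alone.

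Tfeb, the relative best known for driving lysosome genes, lies on chromosome 17 (47737037 to 47792416). Its CPM were 26.5, 34.3 and 30.0 in 4OHT libraries and 31.4, 31.0 and 30.8 in EtOH libraries. The 4OHT libraries spread on either side of the EtOH libraries. Its log2 fold change was −0.03 (95% interval −0.24 to 0.18, edgeR adjusted p = 0.847), so a change of the size seen in Usf2 lies outside the interval, and the size seen in Tfe3 is also outside it. Without 4OHT replicate 1 the sign turned, to 0.05.

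Mitf, the pigment cell factor of the family, lies on chromosome 6 (97807002 to 98021360) and has several promoters, whose transcripts the table does not separate. It was the lowest member, with 15, 17 and 32 counts in 4OHT libraries and 32, 16 and 25 in EtOH libraries. In CPM it was at 3.26, 3.07 and 5.0 in 4OHT and 6.44, 3.62 and 6.15 in EtOH. The ranges overlap through 4OHT replicate 3 and EtOH replicate 2. The log2 fold change of −0.49 had a 95% interval from −1.04 to 0.05 (edgeR adjusted p = 0.147), and without EtOH replicate 2 it was −0.71 with an edgeR adjusted p of 0.046. No change and a fall of the size seen in Tfe3 both lie inside that interval, and were not told apart at this depth. Tfec, the remaining family member, had 2 counts in EtOH replicate 2 and 0 elsewhere, and was not tested.

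Usf1 (chromosome 1, 171411307 to 171418954) had 402, 426 and 505 counts in 4OHT libraries and 556, 417 and 408 in EtOH libraries. Its CPM were 87.2, 76.8 and 78.9 in 4OHT and 112, 94.3 and 100.4 in EtOH. The highest 4OHT library stayed below the lowest EtOH library. The log2 fold change was −0.35 (95% interval −0.47 to −0.22, edgeR adjusted p = 1.35e-06). It lay between −0.40 and −0.27 when any library was left out. Of its exon bases 200 are shared with Tstd1, the next gene on the same strand, which had at most 21 counts in any library.

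Usf2 (chromosome 7, 30945248 to 30956951) moved the other way. It had 162, 188 and 228 counts in 4OHT libraries and 117, 112 and 95 in EtOH libraries. Its CPM were 35.2, 33.9 and 35.6 in 4OHT and 23.6, 25.3 and 23.4 in EtOH. All 4OHT libraries were above all EtOH libraries, and the spread inside a group was small. The log2 fold change was 0.54 (95% interval 0.32 to 0.75, edgeR adjusted p = 1.11e-05). Of its exon bases 241 (9.09%) are shared with models on the opposite strand, Gm44662 and Gm17077, and whether the counting used strand is not stated in the labels. GENCODE also lists a pseudogene copy, Usf2-ps1, and how reads matching it were counted is not given. The part of either in the rise was not tested.

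Usf3, a more distant USF gene, was at 41.4 ± 1.54 CPM in 4OHT and 35.5 ± 0.677 CPM in EtOH (SD, n = 3 each). It had a log2 fold change of 0.22 and was just outside the threshold (edgeR adjusted p = 0.0514), although its libraries did not overlap.

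Levels of different genes can be set side by side only per length, here as CPM per kilobase of the deposited gene length. On that scale Tfe3, with any reads of the fusion, was the highest of the 6 genes. It had 254 ± 1.32 in 4OHT and 317 ± 10.7 in EtOH (SD, n = 3 each). It ranked 177th of the 12345 tested genes by that level. Usf1 followed with 44.4 ± 3.03 in 4OHT and 56.1 ± 4.94 in EtOH. Then, with the deposited lengths, the order depended on the group. In 4OHT, Usf2 (14.4 ± 0.366) stood above Tfeb (10.7 ± 1.38), and their libraries did not overlap. In EtOH, Usf2 (9.96 ± 0.443) stood just below Tfeb (11 ± 0.120), and the closest libraries were at 10.5 for Usf2 and 10.9 for Tfeb. The order of genes depends on the length used. The deposited lengths were 2827 bases for Tfeb and 2419 for Usf2, where the exons of GENCODE vM21 cover 5669 and 2651 bases. The order with those lengths was not tested, and the shares and ratios between genes below also rest on the deposited lengths. Usf3 (3.28 ± 0.123 in 4OHT and 2.81 ± 0.0537 in EtOH) and Mitf (0.729 ± 0.206 in 4OHT and 1.04 ± 0.300 in EtOH) were lowest.

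**Figure D2:**
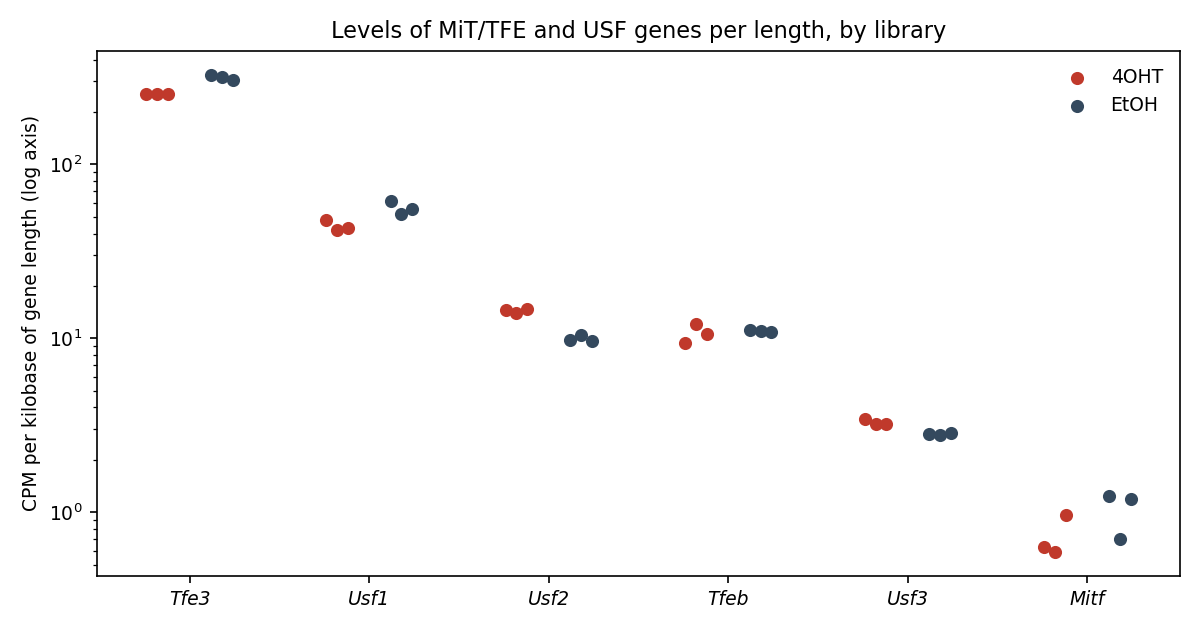
CPM per kilobase of gene length (log axis) for the 3 detected MiT/TFE genes and the 3 USF genes, 1 point a library, 4OHT beside EtOH. Tfe3, with any reads of the fusion, stands above all others in every library. With the deposited lengths, Usf2 stands above Tfeb in 4OHT only.

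Tfe3 therefore supplied nearly all MiT/TFE reads per length, with reads of the fusion counted as far as they share sequence. The level of the endogenous gene alone was not measured, so shares, sums and ratios with Tfe3 hold for both together. Its share of the sum of Tfe3, Tfeb and Mitf was 96.2%, 95.3% and 95.6% in 4OHT libraries and 96.4%, 96.4% and 96.2% in EtOH libraries. The highest 4OHT share reached the lowest EtOH share (difference −0.64 percentage points, two-sided exact permutation p = 0.2). The sum itself was 265 ± 2.23 CPM per kilobase in 4OHT and 329 ± 10.9 in EtOH (SD, n = 3 each, exact permutation p = 0.1, the smallest that 3 against 3 libraries can give). The ratio of Tfe3 to Tfeb per length was 27.1, 21.1 and 23.8 in 4OHT libraries and 29.5, 28.9 and 28.2 in EtOH libraries. The groups did not overlap, and 4OHT replicate 1 lay closest to EtOH (two-sided exact permutation p = 0.1 on the log2 ratio).

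The balance between Usf1 and Usf2 differed between groups in every library. The ratio of Usf1 to Usf2 per length was 3.29, 3.01 and 2.94 in 4OHT libraries and 6.31, 4.94 and 5.70 in EtOH libraries. All 4OHT values lay under all EtOH values, and the log2 ratio was 1.62 ± 0.0867 in 4OHT and 2.49 ± 0.177 in EtOH (SD, n = 3 each, difference −0.87, two-sided exact permutation p = 0.1). Their sum was 58.9 ± 3.21 CPM per kilobase in 4OHT and 66.1 ± 4.64 in EtOH, with overlapping libraries (SD, n = 3 each, two-sided exact permutation p = 0.2). The ratio of Tfe3 to Usf1 per length lay between 5.31 and 6.05 in 4OHT and between 5.34 and 6.11 in EtOH, and the log2 ratio differed by 0.02 (two-sided exact permutation p = 1).

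**Figure D3:**
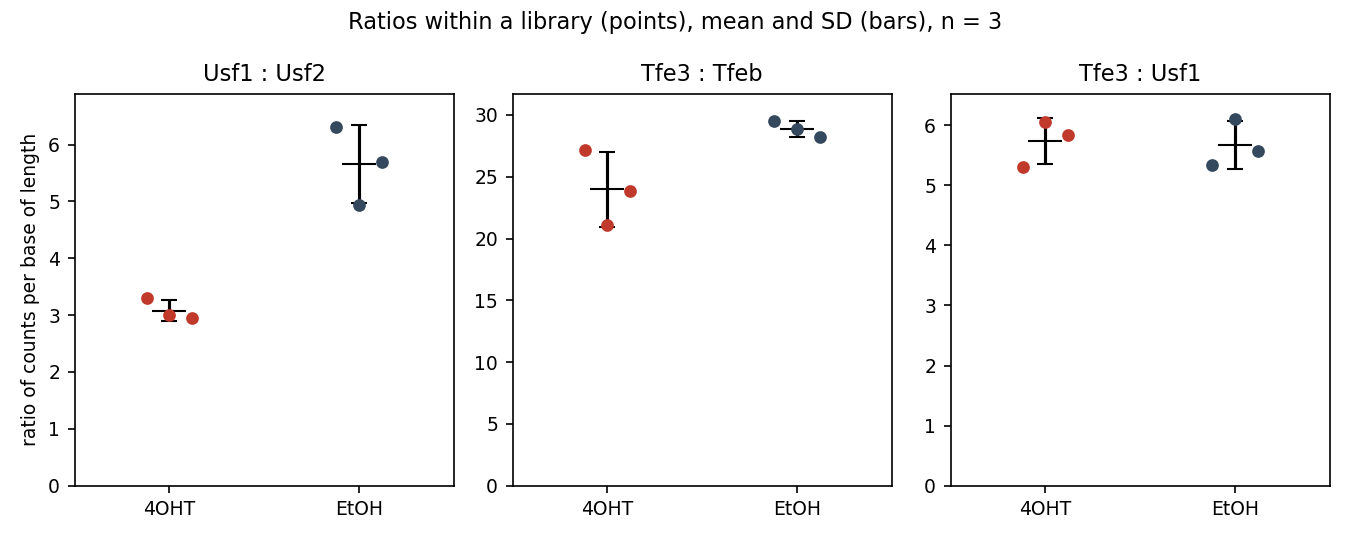
Ratios of counts per base of gene length within each library (points), with mean and SD (bars, n = 3 libraries each), 4OHT left and EtOH right, y axes from 0. The ratio of Usf1 to Usf2 is near 3.08 in 4OHT and 5.65 in EtOH, and the ratio of Tfe3 to Usf1 overlaps between groups.

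Some other E-box readers had larger fold changes than the members. Of 16 further bHLH-ZIP factors, 15 were tested, and 2 were higher and 5 lower in 4OHT. The number lower was 3 with DESeq2 and 3 without EtOH replicate 2. Calls were near the 42% over all tested genes, so the count is no result about the list. The median log2 fold change of the 15 was −0.10, beside −0.0023 over all tested genes. Mycn, a MYC family regulator of growth, was at 100.2 ± 4.61 CPM in 4OHT and 315 ± 7.33 CPM in EtOH (SD, n = 3 each), 3.16-fold lower (edgeR adjusted p = 1.28e-94). Mycl, another MYC family gene, was 2.06-fold lower. Myc, Mga and Tfap4, named after their values were seen, were also called lower, with log2 fold changes of −0.28, −0.10 and −0.29. The edgeR adjusted p was 0.00014 for Myc, 0.0171 for Mga and 0.0241 for Tfap4, whose libraries overlapped between groups. Mycn and Mycl kept their call with DESeq2, so the calls lost with it lie among Myc, Mga and Tfap4. Mnt, which pairs with Max and opposes MYC, rose 1.34-fold. Srebf2, the regulator of cholesterol synthesis, rose 1.19-fold. Max, the common partner, named after its values were seen, was at 108 CPM in 4OHT and 104 CPM in EtOH (edgeR adjusted p = 0.428).

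Of 5 listed E-box factors of the circadian clock, 4 were tested and called higher in 4OHT. Bhlhe41 is among them, and it passed the filter on low counts only through the 4OHT libraries, so the count is not set against the share over all genes. Bhlhe40, a repressor at E-boxes, was at 191 ± 5.02 CPM in 4OHT and 67.0 ± 5.71 CPM in EtOH (SD, n = 3 each), 2.85-fold higher (edgeR adjusted p = 1.54e-71). Its relative Bhlhe41 had 12, 25 and 30 counts in 4OHT libraries and 5, 5 and 3 in EtOH libraries. Arntl, which encodes the activator BMAL1, rose 1.49-fold. Its partner Clock rose 1.26-fold (edgeR adjusted p = 0.0076), a call lost with DESeq2 (DESeq2 adjusted p = 0.0821) and without 4OHT replicate 3 (edgeR adjusted p = 0.15). Npas2 had 6, 6 and 7 counts in 4OHT libraries and 2, 1 and 1 in EtOH libraries, too few to be tested.

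**Figure D4:**
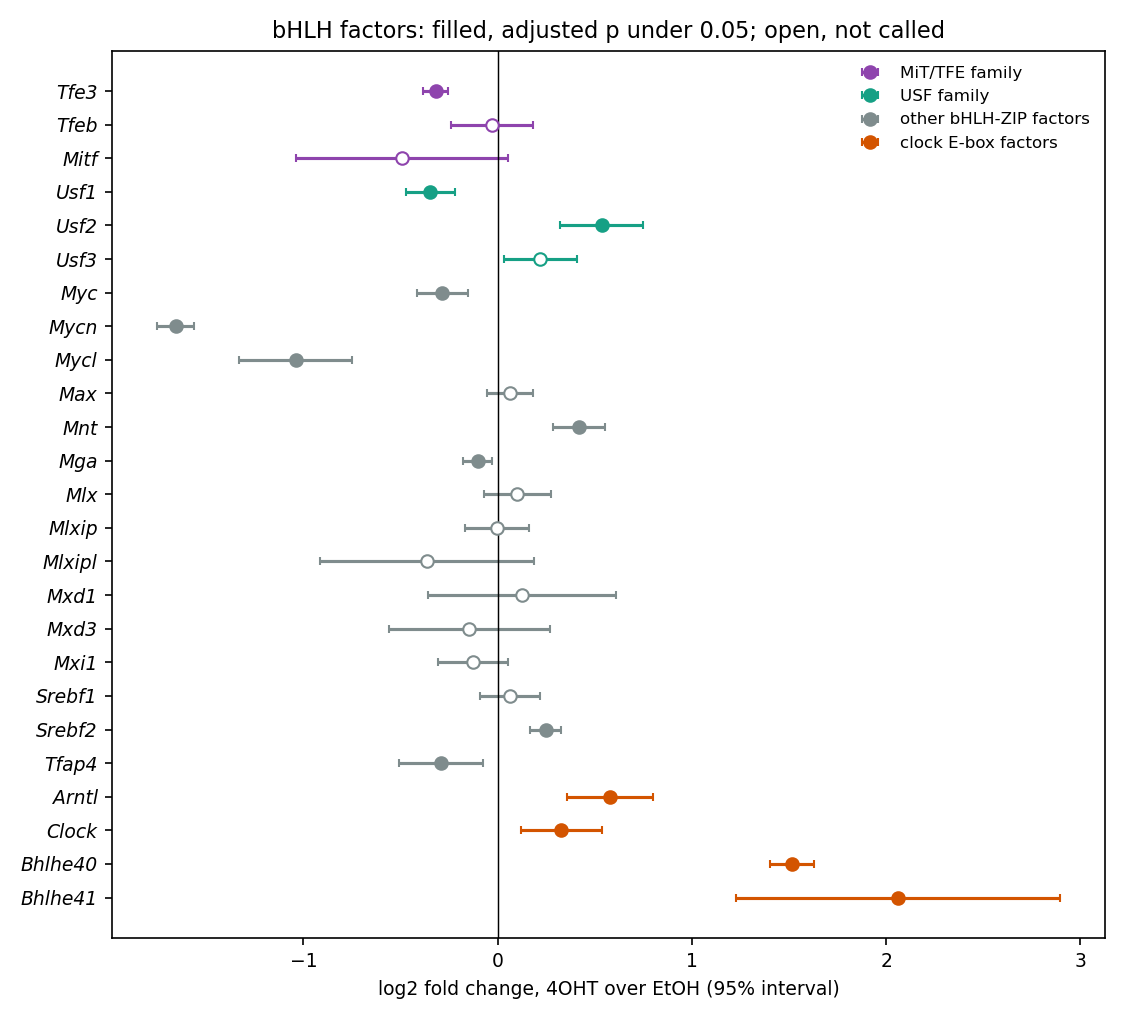
log2 fold change, 4OHT over EtOH, with 95% interval (bars) for the tested MiT/TFE, USF, other bHLH-ZIP and clock factors, filled where the edgeR adjusted p was under 0.05. Tfe3 and Usf1 lie left of 0 and Usf2 right of it, Mycn lies farthest left, at −1.66, and Bhlhe41 farthest right, at 2.06.

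Among genes known to control where MiT/TFE proteins sit, 22 of cytoplasmic retention were tested. Of these 9 were higher and 4 lower, where 21.4% of all tested genes were higher and 20.6% lower, and their median log2 fold change was 0.09. Rragc, Fnip2 and some other higher genes of this list are also on the list of reported MiT/TFE targets below. The counts of these lists are therefore not separate results. Rragc, a Rag GTPase, rose 2.41-fold, the folliculin partners Fnip2 and Fnip1 rose 1.74-fold and 1.71-fold, and the 14-3-3 gene Ywhag rose 1.21-fold. Among the lower genes, named after their values were seen, Rragb, Ywhaq and Mapk3 had log2 fold changes of −0.59, −0.21 and −0.39. Among 10 genes of nuclear entry, export, turnover and co-regulation, 2 were higher and 2 lower, a share near the 42% called over all tested genes. Mcoln1, the lysosomal calcium channel that leads to calcineurin, rose 1.76-fold and is also a listed MiT/TFE target. Ppp3ca, a catalytic subunit of calcineurin, rose 1.61-fold. Xpo1, the nuclear export receptor, was at 558 ± 9.03 CPM in 4OHT and 717 ± 0.877 CPM in EtOH (SD, n = 3 each), 1.28-fold lower (edgeR adjusted p = 2.57e-20). Carm1, a methyltransferase that acts as a TFEB co-activator, was 1.26-fold lower.

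Of 8 partners and modifiers of USF factors, 7 were tested, 3 were higher and 1 lower, where 42% of all tested genes were called, so the count is no result about the list. Kat2b, an acetyltransferase, rose 1.25-fold and Mapk14, which encodes the p38 kinase, rose 1.15-fold. The mediator subunit gene Med17 rose 1.14-fold, a call lost with DESeq2 (DESeq2 adjusted p = 0.0892) and without EtOH replicate 2 (edgeR adjusted p = 0.0735). Prkdc, the DNA-dependent protein kinase that phosphorylates USF1 in lipogenic tissue, was 1.25-fold lower. Of 13 tested genes reported elsewhere as USF targets, 7 were higher and 4 lower, beside 21.4% and 20.6% of all tested genes, with a median log2 fold change of 0.10. Igf2r, the receptor that carries enzymes to lysosomes, rose 1.54-fold and the metallothionein gene Mt1 1.40-fold, while the cyclin gene Ccnb1 was 1.33-fold lower. The fatty acid synthase gene Fasn and Acaca, named after their values were seen, had log2 fold changes of −0.17 and −0.23.

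Genes reported elsewhere as MiT/TFE targets went up almost as a group. Of 27 listed, 25 were tested and 24 were higher, where 21.4% of all tested genes were higher. Wipi1, named after its values were seen, was the exception (log2 fold change −0.04, edgeR adjusted p = 0.908). The median log2 fold change was 0.78, beside −0.0023 over all tested genes. The target genes were listed with results of the same libraries known, so the count is not separate support for a direction. Sqstm1, Lamp1, Ctsb and Ctsd had the smallest p, with log2 fold changes of 1.19, 0.87, 1.13 and 0.87.

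Pigment cell genes, the classical targets of Mitf, were mostly too low to test. Of 12 listed, 3 were tested and 5 had no count in any library (Tyr, Tyrp1, Dct, Oca2 and Slc45a2), where 3 counts would correspond to between 0.469 and 0.738 CPM, a floor that covers counting error only. Pmel, a melanosome protein gene, was at 28.7 ± 2.11 CPM in 4OHT and 11.2 ± 1.01 CPM in EtOH (SD, n = 3 each), 2.57-fold higher (edgeR adjusted p = 8.95e-18). Gpr143, a melanosome receptor gene, had 13, 21 and 19 counts in 4OHT libraries and 1, 3 and 0 in EtOH libraries. It passed the filter on low counts only through the 4OHT libraries, where it is high, so its call is no support for a difference. Rab27a, which serves melanosome transport, was at 26.1 CPM in 4OHT and 24.8 CPM in EtOH (edgeR adjusted p = 0.639). Among the genes too low to test, Trpm1 had 13, 16 and 10 counts in 4OHT libraries and 1, 4 and 2 in EtOH libraries. Slc24a5 lay the other way, with 4, 3 and 7 counts in 4OHT libraries and 6, 15 and 12 in EtOH libraries. Rab27a, Trpm1 and Slc24a5 were named after their values were seen.

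The sites below show how the letters of the E-box sit in promoters of genes of these lists, and what distinguishes the forms counted next. Cln3, Igf2r and Fmr1 carry the CLEAR palindrome, Mcoln1, Ctsd, Gla and Atp6v0d1 the extended E-box, and Rragc the plain E-box. Each line gives 30 bases from RefSeq on GRCm38.p6 along the gene, with the longest form matched in capitals.
Cln3, chr7:126583340-126583369 (- strand): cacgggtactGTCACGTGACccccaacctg
Igf2r, chr17:12769696-12769725 (- strand): gccgactcagGTCACGTGACgctccgggga
Fmr1, chrX:68678518-68678547 (+ strand): ggctgcgcggGTCACGTGACatcgtttgac
Mcoln1, chr8:3500462-3500491 (+ strand): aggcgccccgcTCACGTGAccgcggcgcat
Ctsd, chr7:142387908-142387937 (- strand): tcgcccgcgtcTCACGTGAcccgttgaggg
Gla, chrX:134601215-134601244 (- strand): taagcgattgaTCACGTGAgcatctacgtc
Atp6v0d1, chr8:105566050-105566079 (- strand): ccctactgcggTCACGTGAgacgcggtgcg
Rragc, chr4:123917309-123917338 (+ strand): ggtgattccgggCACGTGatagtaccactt
Cln3, a lysosomal membrane protein gene, was at 51.2 ± 1.59 CPM in 4OHT and 23.0 ± 1.98 CPM in EtOH (SD, n = 3 each). Fmr1, listed for USF binding to its human promoter, was at 163 ± 7.52 CPM in 4OHT and 148 ± 3.90 CPM in EtOH (SD, n = 3 each). Of the genes reported as MiT/TFE targets, 22 had a window, and 7 of them (31.8%) held the E-box and 5 (22.7%) the extended form. Those shares were 8.99% and 1.42% over all 18458 genes with a window, and 12.2% and 2.29% over the 9635 tested ones. Whether targets were reported because of such sites was not examined, so the shares only describe the list.

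Calls over the whole table were then counted by the longest form in a gene's window. Of 9635 tested genes with a window, 21.6% were higher and 20.6% lower. The 950 tested genes with an E-box but not its extended form had 24.3% higher and 24.3% lower. The 141 with the extended form but not the palindrome had 31.9% higher and 21.3% lower. The 80 with the CLEAR palindrome had 26 higher (32.5%) and 7 lower (8.75%), with a median log2 fold change of 0.05. With DESeq2, which called fewer genes, 20% of those with the palindrome were higher and 7.5% lower, beside 15.6% and 14.1% of all genes with a window. These are descriptions of sequence and calls, with no test, and a match is not a bound site.

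**Figure D5:**
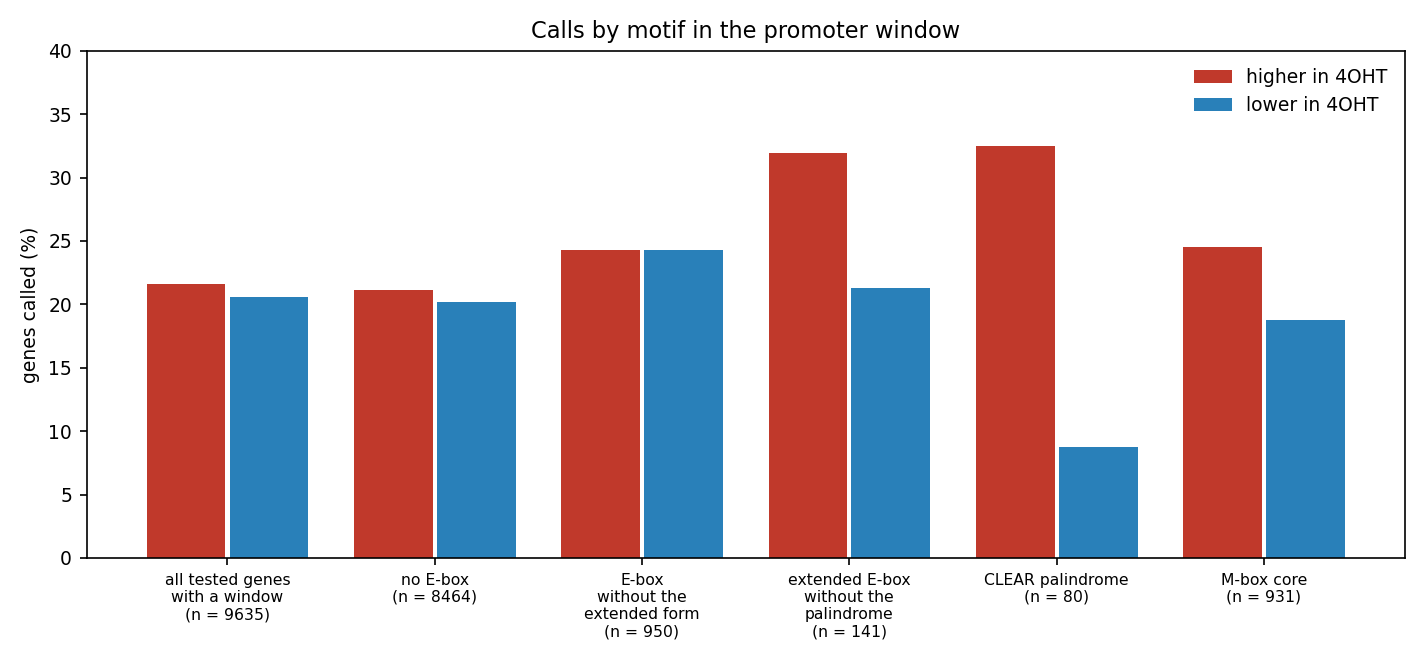
Percent of tested genes called higher or lower in 4OHT (edgeR adjusted p under 0.05) by the longest E-box form in the promoter window and, apart from these, by the M-box core, with the number of tested genes under each pair of bars. Genes with the CLEAR palindrome have 32.5% higher and 8.75% lower, beside 21.6% and 20.6% of all tested genes with a window.

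The M-box core was in the windows of 7 of the 8 pigment cell genes with one, where 13.3% of all genes with a window held it. Those 7 genes were all too low to test. Rab27a, which was tested, had windows without the core, and Pmel and Gpr143 had no window. The sites below are shown because Tyr and Tyrp1 had 0 counts in all 6 libraries although the letters are there. The core is in capitals.
Tyr, chr7:87493516-87493545 (- strand): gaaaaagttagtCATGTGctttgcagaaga
Tyrp1, chr4:80834155-80834184 (+ strand): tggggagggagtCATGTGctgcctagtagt
Of the 931 tested genes with the core, 24.5% were higher and 18.8% lower in 4OHT, beside 21.6% and 20.6% of all tested genes with a window. These shares lie near each other, and no test was made of them.

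Genes whose profile over the 6 libraries was most like that of a member were found by the smallest root mean square difference of centred log2 CPM among 8457 well measured genes. For Tfe3 they included Parp2 (0.0222) and Ptcd3 (0.0228). Parp2, a DNA repair gene, was at 101 ± 1.25 CPM in 4OHT and 124 ± 1.80 CPM in EtOH (SD, n = 3 each). For Usf1 they were Morf4l1-ps1 (0.0344), Abhd11 (0.0440) and Ccnb1-ps (0.0457), of which the pseudogenes may share reads with their parent genes. For Usf2 they were Lmo7 (0.0132), Swt1 (0.0291) and Itga6 (0.0293).

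The genes next to the members showed no common direction. Beside Tfe3, Ccdc120 was at 41.6 ± 0.346 CPM in 4OHT and 29.1 ± 0.180 CPM in EtOH (SD, n = 3 each; log2 fold change 0.51, edgeR adjusted p = 3.51e-06), and Gripap1 missed the threshold (edgeR adjusted p = 0.153, and 0.045 with counts thinned to the smallest library). Beside Usf1, Arhgap30 was lower, as Usf1 was (log2 fold change −0.83, edgeR adjusted p = 0.00745) and Tstd1 was not called (log2 fold change −0.40). Beside Usf2, Lsr was at 29.6 CPM in 4OHT and 28.2 CPM in EtOH and Hamp had 1 count in all. Beside Tfeb, Mdfi was lower (log2 fold change −0.82, edgeR adjusted p = 3.45e-07) and Pgc missed the threshold (edgeR adjusted p = 0.0944). Frmd4b, next to Mitf, was not called (log2 fold change −0.13).

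ERT2 is a mutated ligand-binding domain of the estrogen receptor. The mouse gene of that receptor, Esr1, named like Greb1 after its values were seen, was at 46.2 ± 3.36 CPM in 4OHT and 50.6 ± 5.31 CPM in EtOH (SD, n = 3 each, log2 fold change −0.14, edgeR adjusted p = 0.192). Reads of the domain would count here only as far as they match the mouse gene. Greb1, an estrogen response gene, had a log2 fold change of 0.05 (edgeR adjusted p = 0.893).

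Libraries held between 4648374 and 6427880 counts in 4OHT and between 4092877 and 4984364 in EtOH. Nothing in the labels tells if the 3 libraries of a group are separate cultures, and p-values therefore reflect the spread among these 6 libraries alone, which may be technical. Of 7 stem cell markers, 7 were tested, 5 were higher and 1 lower, where 21.4% of all tested genes were higher and 20.6% lower. The markers had a summed level between 4444 and 4520 CPM in 4OHT and between 3292 and 3331 CPM in EtOH. Most of that difference lay in Tfcp2l1 (1510 CPM in 4OHT and 669 CPM in EtOH) and Esrrb (882 CPM in 4OHT and 566 CPM in EtOH). Pou5f1 fell (697 CPM in 4OHT and 791 CPM in EtOH), and Sox2 was at 549 CPM in 4OHT and 555.5 CPM in EtOH. Of 7 trophectoderm markers, 5 were tested and 5 higher, with sums between 881 and 901 CPM in 4OHT and between 379 and 405 CPM in EtOH, mostly Krt8 and Krt18. Eomes rose 2.62-fold and Gata3 2.25-fold. Hand1 had 46, 46 and 55 counts in 4OHT libraries and 3, 9 and 8 in EtOH libraries. It passed the filter only through the 4OHT libraries, so the trophectoderm count is not set against the share over all genes. The remaining trophectoderm markers, Cdx2 (6, 8 and 12 counts in 4OHT libraries and 14, 12 and 5 in EtOH libraries) and Elf5 (1 count in all), were too low to test. Fibroblast markers summed to between 16.8 and 21.6 CPM in 4OHT and between 13.5 and 21.4 CPM in EtOH, with Lum at 0. Neural markers summed to between 42.1 and 43.1 CPM in 4OHT and between 59.9 and 66.7 CPM in EtOH. That difference lay in Tubb3 (33.7 CPM in 4OHT and 54.5 CPM in EtOH), the only neural marker called. Sox1 lay the other way (6.29 CPM in 4OHT and 4.52 CPM in EtOH, edgeR adjusted p = 0.163). Pax6 was not called (edgeR adjusted p = 0.481), and Neurog2 was too low to test. For mesoderm the sums were 2.82 to 4.53 CPM in 4OHT and 5.66 to 7.65 CPM in EtOH, but its markers did not move together. T had 0, 5 and 4 counts in 4OHT libraries and 22, 25 and 16 in EtOH libraries. Kdr went the other way, with 12, 12 and 21 counts in 4OHT libraries and 4, 0 and 4 in EtOH libraries. Each passed the filter only through the group where it is high. For primitive endoderm the sums were 11.9 to 16.2 CPM in 4OHT and 7.38 to 11.3 CPM in EtOH. Only 2 of its 5 markers were tested, and neither was called (edgeR adjusted p = 0.702 for Gata4 and 0.0813 for Sox7). In bulk samples fewer cells of a type and less RNA per cell cannot be told apart, and the part of such shifts in the members' values was not tested.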

How the data were processed

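RNA of 6 mESC libraries was sequenced with a stranded mRNA kit, per the labels' protocols. The authors deposited raw counts per gene with a gene length, per the file headers. Per the submitters' processing notes fastp, STAR and featureCounts were used on mm10. Versions, annotation, strand setting and the handling of reads with several matches are not stated there. Libraries held 4092877 to 6427880 counts, and a floor of 3 counts equals 0.469 to 0.738 CPM, for counting error only.

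Genes were kept by filterByExpr (minimum count 10, minimum total 15), scaled with TMM and tested with edgeR 4.0.16 in R 4.3.3 (robust quasi-likelihood, Benjamini-Hochberg over 12345 genes). CPM here are counts over the TMM-scaled library size. Log2 fold changes are 4OHT over EtOH, and their SE is the absolute log2 fold change over the square root of F. Shares and ratios were compared with two-sided exact permutation tests. Gene positions and promoter windows are from RefSeq on GRCm38.p6 and exon overlaps from GENCODE vM21, on the same build as mm10. Alternatives were other scalings and filters, DESeq2 1.42.0, limma-voom 3.58.1, the replicate block, thinning and leaving out each library. Simulated counts with 1 common dispersion, and 50 changed genes at each fold, were used to test the fit. Of changes of 1.2-fold, 1.5-fold, 2-fold and 4-fold it recovered 26%, 80%, 98% and 100%. Of its calls, 6.17% were false.

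Members, lists and tests were chosen with earlier results of these data known. The text names the members, Tfec, Usf3, at most 4 called genes of each list (those of lowest p), whole lists of 5 or fewer, the 3 genes nearest in profile to Tfe3, Usf1 and Usf2, and annotated neighbours. Other names are marked as chosen after their values were seen, or are quoted for a printed promoter site or as a marker. A few genes that this rule names are not reported here.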

Additional observations from a re-analysis of the deposited data

How the results depend on the processing

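Tfe3, Usf1 and Usf2 kept their direction in every alternative run, and their call under other scalings, other filters, DESeq2, limma-voom, thinning, the replicate block and each library left out. Tfe3 lay between −0.34 and −0.29 on the log2 scale with a library left out, Usf1 between −0.40 and −0.27, and Usf2 between 0.52 and 0.57. Tfeb ranged from −0.12 to 0.05 and turned sign without 4OHT replicate 1 (0.0458). Mitf ranged from −0.78 to −0.33 and was called without EtOH replicate 2 (−0.71). At a minimum of 1.5-fold, 0 members were called higher and 0 lower, with 969 higher and 532 lower genes in all. Of all 221 genes with the extended E-box, 10.9% were lower with DESeq2 and 16.7% with edgeR, beside 14.1% and 20.6% of all genes with a window. Of those with the CLEAR palindrome, 20% were higher with DESeq2 and 32.5% with edgeR, beside 15.6% and 21.6%. Lsr changed sign when thinned (−0.0132). With the replicate number as a block, the difference in the log2 ratio of Usf1 to Usf2 stayed −0.87, with an exact permutation p of 0.25, the smallest that 3 pairs allow. The block changed no call of a member. Same-numbered libraries did not deviate together (correlations 0.0122, −0.0397 and −0.0455), so the numbers are not read as pairs. Mitf, with at most 32 counts a library, is limited by depth.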
